A study of Mus musculus with 8 samples.

Results

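The endolysosomal tethering, SNARE and sorting genes are 45 mouse genes, listed by symbol with no threshold on a measured value, that encode the machinery which sorts cargo on endosomes and fuses endosomes and autophagosomes with lysosomes. Of these, 44 had a row in the tables of 21080 genes, and all 44 were among the 16284 genes that passed the filter on low values. Vamp7 was not analysed here. The 44 genes comprise 7 HOPS and Vps33 genes, 3 retromer genes, 3 genes of ESCRT-0, 5 of ESCRT-I and 3 of ESCRT-II, 2 Vps4 ATPases, 8 Qa-SNAREs, 4 Qb and Qc SNAREs, 2 Qbc SNAREs, 4 R-SNAREs, and the 3 genes Arl8b, Plekhm1 and Epg5.

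The cells were bone marrow-derived macrophages (BMDMs), grown from marrow in M-CSF, of C57BL/6 mice, and their RNA was sequenced. The cKO mice carried Nudt21 fl/fl and LysM-Cre, and their sex-matched littermates with LysM-Cre served as WT, so that both genotypes carried the Cre. LysM-Cre acts in cells of the myeloid lineage, and Nudt21 is therefore deleted in other myeloid cells of these mice as well as in macrophages. The mice's ages are not given in the sources used here. Cells were taken either at 0 h or after IFNγ priming overnight and LPS for 4 h, with 2 WT (replicates 1 and 2) and 2 cKO (replicates 3 and 4) samples at each time, 8 in all. Each sample pooled the cells of 2 mice. The 0 h samples carry the same treatment label as the stimulated ones, and their titles give the time.

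Membrane traffic towards the lysosome proceeds by tethering and then fusion. The HOPS complex, recruited to late endosomes and lysosomes with the help of the small GTPase Arl8b, holds membranes together, and SNARE proteins on the opposing membranes zip into a bundle of Qa, Qb, Qc and R helices that drives fusion. ESCRT complexes act in sequence on ubiquitinated receptors and bud them into the endosome lumen, and retromer returns other cargo to the Golgi and plasma membrane. In macrophages the same genes serve phagosome maturation, autophagy and cytokine secretion. Nudt21 encodes the CFIm25 subunit of cleavage factor Im, which binds UGUA in pre-mRNA and promotes use of distal polyadenylation sites, so that its loss is known for shortening 3'UTRs.

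Because CFIm25 binds UGUA, the last such site in the annotated 3'UTR is shown for the 6 members with the largest called differences between genotypes at 4 h. Each run is 30 bases of the sense strand as DNA, 5′ to 3′, from the GENCODE M21 transcripts (GRCm38), with the TGTA motif in capitals.
Stam2: gtgaaagacaaagTGTAaggctcctgtcta
Stam: aacaacaacttccTGTAcacctccttttta
Vps37a: cagttttgttatgTGTAatctctgaaagag
Vps36: tttttaaactttcTGTAagatacatgcaaa
Plekhm1: cacacacacacccTGTAaaagcaggactct
Stx12: cttggcctggagtTGTAgtggtttttggga
The site shown for Stam2 lay 225 bases before the annotated end of its 3045-base 3'UTR, that of Stam 151 bases before the end of 3154, and that of Vps37a 216 bases before the end of 4859. For Vps36 the distance was 45 of 2351 bases, for Stx12 it was 42 of 1965, and for Plekhm1, the farthest, it was 568 of 2607. The presence of the letters is a description of the annotation and not evidence that the site was bound or used.

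The deposited values have the properties of a gene's read coverage per base, averaged over its length. Summed over all genes they ran from 14950300 to 17954900 per sample and carried no scaling for depth. Each sample was divided by 1 factor, the median over genes of its ratio to the mean of the 8 samples. The quotient is called scaled coverage. The factors did not follow the sums. At 0 h they were 1.42 and 1.42 for WT and 1.48 and 1.60 for cKO. At 4 h they were 0.573 and 0.662 for WT and 0.772 and 0.768 for cKO. Scaling thus raised values at 4 h against those at 0 h. Values of a group are listed in the order of its replicates. The values are per base, which takes account of annotated length in a comparison between genes. Isoforms, 3'UTR length and reads shared with other genes still limit such a comparison. Nudt21 itself served as the check of the labels. Its scaled coverage at 4 h was 954 and 869 for WT against 184 and 150 for cKO, and at 0 h it was 506 and 452 for WT against 107 and 108 for cKO. Both cKO samples were lower than both WT samples at each time, with log2 fold changes of -2.45 at 4 h (standard error 0.14, n = 2 per group, limma adjusted p = 0.00208) and -2.16 at 0 h (adjusted p = 0.00394).

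The 8 macrophage markers examined were present in every sample, and the summed scaled coverage of the list was 84993 to 91131 in WT and 83204 to 83488 in cKO at 0 h, and 96840 to 113568 in WT and 91383 to 97986 in cKO at 4 h. Single markers differed between genotypes in both directions. At 4 h Adgre1 (-0.79), Fcgr1 (-0.62) and Itgam (-0.43) were called lower in cKO and Cd68 (0.75) higher, and at 0 h Adgre1 (-0.78), Csf1r (-0.67) and Fcgr1 (-1.01) were called lower. The part of these differences in the results was not tested. Nos2, which IFNγ and LPS induce, was at 0 in the 4 samples at 0 h and between 31264 and 57908 at 4 h. At 4 h Nos2 was called higher in cKO (log2 fold change 0.82, adjusted p = 0.0082) and Il1b lower (-1.31, 0.0355), Tnf and Il6 were not called, and the summed scaled coverage of these 4 response genes was 527265 to 557298 in cKO against 622778 to 990715 in WT. The part of this in the members' values at 4 h was not tested. Of 21 markers of T cells, B cells, neutrophils and progenitors, dendritic cells, erythroid cells and stroma, 18 were tested, of which 1 was called between genotypes at 4 h and 0 at 0 h, with 6 and 1 at an unadjusted p under 0.05. The 1 called was the dendritic cell marker Xcr1, at 30.5 and 79.1 for WT and 6.0 and 3.02 for cKO at 4 h. The other dendritic cell markers were not called at 4 h, with log2 fold changes of 1.21 for Zbtb46 (adjusted p = 0.104) and 0.54 for Flt3 (0.485). Cd3e and Ms4a1 were at 0 or under 1.4 in every sample. S100a8 and S100a9, which neutrophils and monocytes express, were present at 4757 to 18269, while the neutrophil marker Ly6g was at most 6.95. Of the same list, Camp was at 282 to 895, Elane at 117 to 299 and Mpo at 99.2 to 202. At 4 h their log2 fold changes were 0.34, -0.47 and -0.70, each at an unadjusted limma p under 0.05 and not called. The sum of the neutrophil and progenitor list was higher in the cKO samples at 0 h, at 14654 to 18059 against 13378 to 14095 in WT, and its ranges overlapped at 4 h, at 22946 to 26756 in cKO and 26685 to 27729 in WT, and its part in the results was not tested. In bulk RNA, fewer cells of a type and less RNA per cell cannot be told apart.

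The members were well expressed. Their mean scaled coverage over the 8 samples had a median of 983 and ran from 101 to 3233, where the median of all tested genes was 115. In resting WT cells the highest levels were those of the late endosomal SNARE Stx7 (2751 and 2270) and of Arl8b (2152 and 2471), whose ranges overlapped, followed by the retromer core subunit Vps35 (2109 and 2098). The lowest was Stx11 (60.6 and 64.2). In stimulated WT cells Stx7 was again highest (4381 and 4016), and Epg5 (72.6 and 87.5) and Vps33b (89.0 and 85.0) were the lowest, with overlapping ranges.

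The first comparison asks which members differ between cKO and WT macrophages after stimulation. At 4 h the ESCRT-0 adaptor Stam2 was about double the WT level in cKO cells while its paralogue Stam was lower, and the ESCRT-II subunit Vps36, the lysosomal adaptor Plekhm1, the HOPS core subunit Vps18 and Arl8b were higher, whereas the ESCRT-I subunit Vps37a and the endosomal syntaxin Stx12 were lower. Thus 5 of 44 members were called higher and 3 lower at an adjusted p under 0.05, beside 8.82% and 8.35% of all tested genes. The 8 members amount to 18.2% of the list, and the background in both directions was 17.2%. The other 36 members spanned log2 fold changes within the range of -0.46 to 0.52. The median log2 fold change of the members was -0.08 and that of all genes was 0.00. By the study's rule, a fold change above 1.5 with an unadjusted p under 0.05, 3 members were higher and 2 lower (10.8% and 9.81% of all genes). On the deposited scale, where cKO samples are deeper and the median gene lay at 0.28, 11 members were called higher and 2 lower (19.6% and 3.38%). The split of higher to lower calls was 5 to 3 at equal total coverage (9.24% and 4.42% of all genes), 3 to 3 after quantile normalization (7.18% and 6.34%) and 2 to 3 after median-centring (7.2% and 8.71%). Fitted on the 4 stimulated samples alone, limma called 0 members, with 7 higher and 4 lower at an unadjusted p under 0.05, and 242 of 14769 genes in all, or 1.64%.

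At 0 h the members higher in cKO were Stam2, Arl8b, the syntaxin Stx3 and the R-SNARE Vamp4. These were 4 of 44 members, beside 2.87% of all tested genes called higher. No member was called lower, with 3 at an unadjusted p under 0.05, beside 2.55% of all genes called lower. By the fold rule 3 members were higher and 0 lower (5.88% and 6.48% of all genes), and on the deposited scale 3 were called higher and 0 lower (3.42% and 1.66%). The median log2 fold change was 0.09 for the members and -0.01 for all genes. Fitted on the 4 resting samples alone, limma called 1 member, and at an unadjusted p under 0.05 it found 6 higher and 4 lower. Over all genes that fit called 184 of 15725, or 1.17%.

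**Figure D1:**
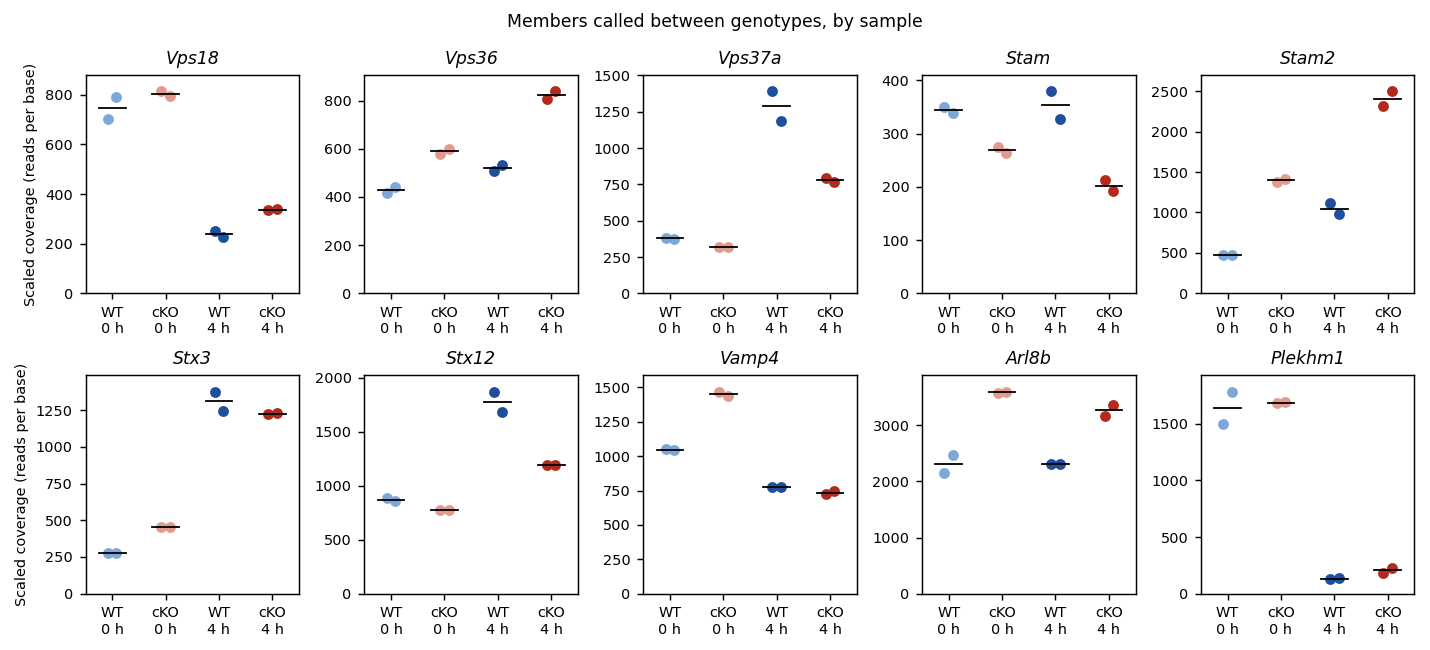
Scaled coverage (reads per base, linear axis from 0) of the 10 members called between genotypes at 0 h or 4 h, with 1 point per sample and a line at the mean of each group of 2 samples. The cKO samples of Stam2 lay above the WT samples at each time, from 476 and 470 to 1378 and 1418 at 0 h and from 1117 and 977 to 2312 and 2498 at 4 h.

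The ESCRT-0 complex is formed by Hgs, which binds the endosomal lipid PI3P and ubiquitin, with STAM proteins, which bind ubiquitin and deubiquitinases. Stam2 (chr2:52691664-52742281 in GRCm38, minus strand) had a scaled coverage of 1117 and 977 in WT against 2312 and 2498 in cKO at 4 h. At 0 h it was 476 and 470 in WT and 1378 and 1418 in cKO, and the genotypes did not overlap at either time. The fitted difference was 1.20 on the log2 scale at 4 h (standard error 0.10, adjusted p = 0.00584) and 1.56 at 0 h (0.10, adjusted p = 0.00444), the largest of all members at each time. It was called with each of the 4 compared libraries left out in turn, with adjusted p from 0.0126 to 0.0353 at 4 h and from 0.0201 to 0.0293 at 0 h. An exon of Stam2 overlaps the gene model Gm13548 on the same strand.

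Stam (chr2:14074098-14149634, plus strand) moved the other way. Its scaled coverage at 4 h was 379 and 328 in WT and 212 and 192 in cKO, a log2 fold change of -0.80 (standard error 0.11, adjusted p = 0.0146). Without the cKO replicate 4 it was -0.73 and was not called (adjusted p = 0.0781). At 0 h the values were 350 and 340 in WT and 275 and 263 in cKO, and the difference of -0.36 did not pass (adjusted p = 0.148). Hgs, the partner of both, differed by 0.13 at 4 h and 0.10 at 0 h, neither of which passed. A ratio of 2 genes within a sample needs no scaling. Stam2 coverage was 1.36 and 1.38 times that of Stam in WT and 5.01 and 5.39 times in cKO at 0 h. At 4 h it was 2.95 and 2.98 times in WT and 10.9 and 12.98 times in cKO. Genotype and stimulation each went with a higher ratio, and the 4 groups did not overlap. The pairs used for such ratios were chosen after their values were seen, so the ratios are descriptions without a test.

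ESCRT-I and ESCRT-II act next on the same cargo. Vps36, the ubiquitin- and lipid-binding subunit of ESCRT-II (chr8:22192809-22220843, plus strand), was at 508 and 533 in WT against 806 and 838 in cKO at 4 h. This is a log2 fold change of 0.66 (standard error 0.09, adjusted p = 0.0129). Without cKO replicate 3 or 4 it was 0.69 and 0.63 and missed the threshold (adjusted p = 0.0504 and 0.0727). At 0 h it was 415 and 442 in WT and 578 and 599 in cKO, and the difference of 0.46 did not pass (adjusted p = 0.0517). The other ESCRT-II subunits, Vps25 and Snf8, differed by -0.22 and -0.14 at 4 h, and neither passed. The ratio of Vps36 to Vps25 was 0.384 and 0.440 in WT against 0.743 and 0.770 in cKO at 0 h, and 0.450 and 0.487 against 0.893 and 0.832 at 4 h.

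Vps37a is 1 of the alternative Vps37 subunits of ESCRT-I (chr8:40511783-40551134, plus strand). It was at 1390 and 1184 in WT against 795 and 766 in cKO at 4 h, a log2 fold change of -0.72 (standard error 0.11, adjusted p = 0.0168). Without cKO replicate 3 or 4 the difference was -0.74 and -0.69 and did not pass (adjusted p = 0.064 and 0.0889). At 0 h it was 383 and 375 in WT and 317 and 316 in cKO, a difference of -0.26 that did not pass (adjusted p = 0.241). Exons of Vps37a overlap those of Mtmr7 on the other strand, and the library kit does not mark strand. Of the remaining ESCRT-I subunits, differences at 4 h ran from -0.25 for Vps28 to 0.45 for Vps37b, and none passed. Vps37a made up 51.4 and 48.4% of the summed coverage of Vps37a, Vps37b and Vps37c in stimulated WT cells and 36.9 and 31.9% in stimulated cKO cells. The share of Vps37c was 38.8 and 41.9% in WT and 50.1 and 50.7% in cKO. The ATPases Vps4a and Vps4b, which take ESCRT-III apart, differed by -0.20 and -0.28 at 4 h, and neither passed.

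**Figure D2:**
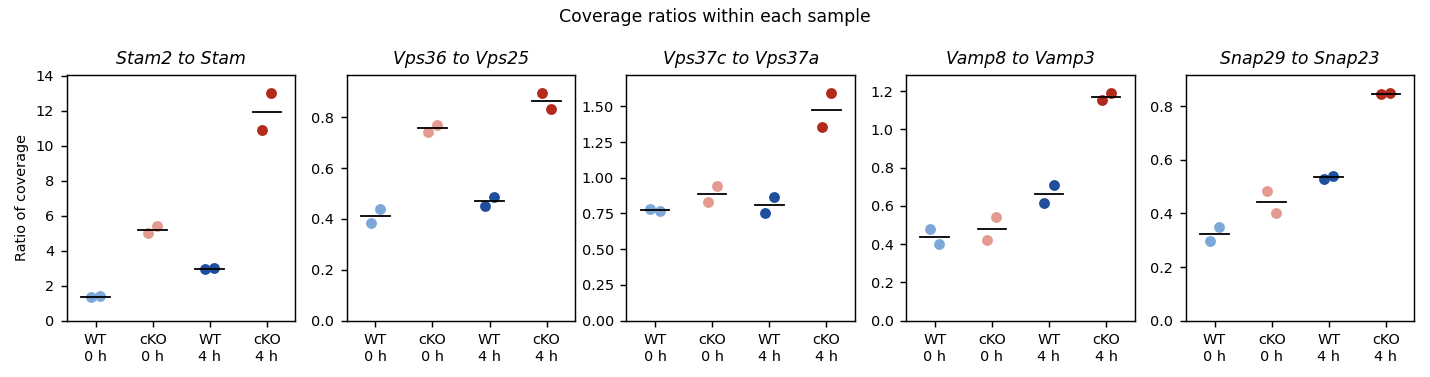
Ratio of the coverage of the named pairs of members within each sample (linear axes from 0), with 1 point per sample and a line at the group mean. The ratio of Stam2 to Stam was 1.36 and 1.38 in resting WT cells and 10.9 and 12.98 in stimulated cKO cells.

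HOPS and its relatives showed a single call between genotypes. Vps18 (chr2:119288740-119298453, plus strand), a core subunit shared by HOPS and CORVET, was at 250 and 226 in WT against 337 and 338 in cKO at 4 h. The fit gave a log2 fold change of 0.51 (standard error 0.10, adjusted p = 0.034), and at 0 h it was 0.11 (adjusted p = 0.614). The call at 4 h was lost without WT replicate 2 (0.43, adjusted p = 0.0783), cKO replicate 3 (0.51, 0.117) or cKO replicate 4 (0.50, 0.138), after median-centring (0.47, 0.0524) and after quantile normalization (0.42, 0.0583). Within the group the differences at 4 h ran from -0.22 for Vps39 to that of Vps18. Vps33a, the SM protein that clasps the SNARE bundle within HOPS, differed by 0.28 at 4 h (adjusted p = 0.167), and Vps16, to which it binds, by 0.27 (0.0911). The retromer subunits Vps26a, Vps29 and Vps35 differed by -0.09, 0.19 and -0.20 at 4 h and by 0.06, 0.16 and 0.13 at 0 h, and none passed.

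Arl8b and Plekhm1 act beside HOPS. Arl8b, the GTPase that brings HOPS to lysosomes and moves them outwards (chr6:108783099-108825278, plus strand), was at 2304 in both WT samples and at 3158 and 3368 in cKO at 4 h. At 0 h it was at 2152 and 2471 in WT and 3578 and 3597 in cKO. Arl8b thus differed by 0.50 on the log2 scale at 4 h (standard error 0.10, adjusted p = 0.0333) and 0.64 at 0 h (0.10, adjusted p = 0.0369), and the genotypes did not overlap at either time. The call at 4 h was lost without WT replicate 1 or 2 (adjusted p = 0.0796 and 0.0751) and cKO replicate 3 or 4 (0.0927 and 0.146), and that at 0 h without WT replicate 1 (0.0883) and cKO replicate 3 or 4 (0.143 and 0.153), while the log2 fold changes stayed between 0.45 and 0.74. Among the scalings, median-centring lost it at 4 h (0.46, adjusted p = 0.0504) and equal total coverage at 0 h (0.63, 0.0731).

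Plekhm1, an adaptor that links Rab7, Arl8b, HOPS and LC3 (chr11:103364275-103412687, minus strand), was at 126 and 136 in WT against 183 and 229 in cKO at 4 h. The fit gave a log2 fold change of 0.65 (standard error 0.15, adjusted p = 0.0473). The call was lost without WT replicate 1 (0.60, adjusted p = 0.127), WT replicate 2 (0.70, 0.0908), cKO replicate 3 (0.81, 0.0634) or cKO replicate 4 (0.49, 0.166), at equal total coverage (0.76, 0.0549), after median-centring (0.61, 0.0623) and after quantile normalization (0.56, 0.0699). At 0 h the genotypes overlapped, at 1501 and 1784 in WT and 1679 and 1693 in cKO, with a difference of 0.04 (adjusted p = 0.929). Plekhm1 overlaps the antisense gene Arhgap27os1, whose reads cannot be told apart here. Epg5, which tethers autophagosomes to late endosomes, differed by -0.11 at 4 h and -0.33 at 0 h, and neither passed.

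**Figure D3:**
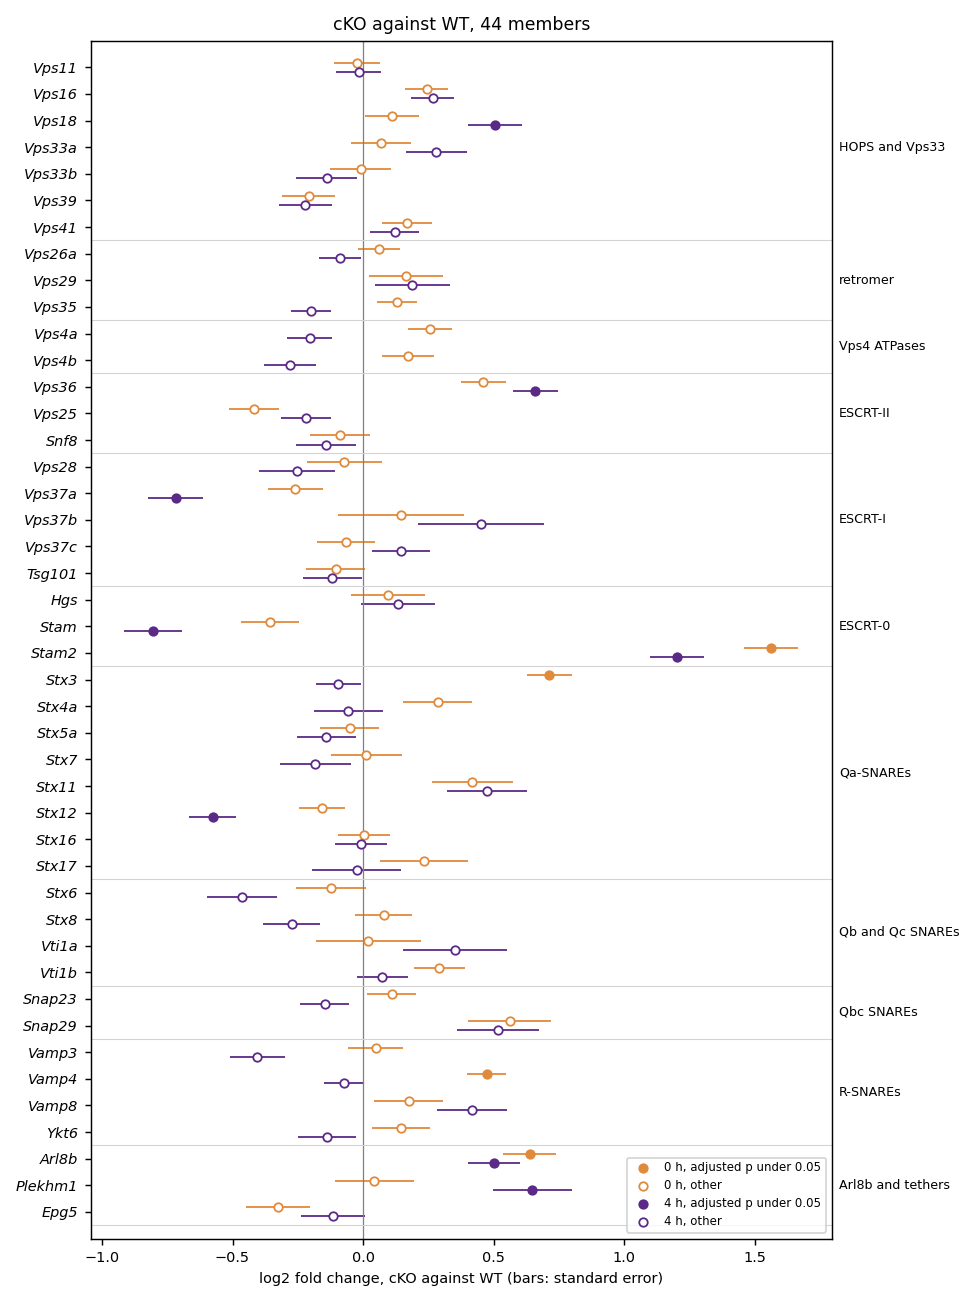
Log2 fold change of cKO against WT with its standard error for the 44 members by complex, at 0 h (orange) and 4 h (purple), where filled points have an adjusted p under 0.05. Most members lie near 0, and Stam2 stands at 1.56 (0 h) and 1.20 (4 h).

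Of the SNAREs, Stx12 was called at 4 h and Stx3 and Vamp4 at 0 h. Stx12, an early and recycling endosome syntaxin (chr4:132853501-132884509, minus strand), was at 1871 and 1685 in WT against 1192 and 1190 in cKO at 4 h, a log2 fold change of -0.58 (standard error 0.09, adjusted p = 0.0186). The call was lost on the deposited scale (-0.25, adjusted p = 0.113), without cKO replicate 3 (-0.58, 0.0743) and without cKO replicate 4 (-0.57, 0.092). At 0 h the values were 884 and 855 in WT and 780 and 779 in cKO, a difference of -0.16 that did not pass (adjusted p = 0.393).

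Stx3, a syntaxin of secretory and endosomal membranes (chr19:11775118-11819403, minus strand), was at 279 and 274 in WT against 454 and 452 in cKO at 0 h. The fitted difference was 0.71 on the log2 scale (standard error 0.09, adjusted p = 0.0205), and it ran from 0.70 to 0.73 with adjusted p from 0.0665 to 0.097 when any 1 of the WT or cKO libraries at 0 h was left out, so that it was not called in those fits. At 4 h the level was 1376 and 1247 in WT and 1223 and 1228 in cKO, a difference of -0.10 (adjusted p = 0.489) that was 0.23 on the deposited scale and 0.02 at equal total coverage. The test of the difference between the times gave -0.81 for Stx3 (standard error 0.12, adjusted p = 0.0468). It was the only member called in that comparison, beside 2.7% of all genes. At an unadjusted p under 0.05 there were 11 of 44 members, beside 3554 of all 16284 genes. The adjusted p was 0.0864 and 0.0947 without WT replicate 1 or 2 at 0 h, 0.134 without cKO replicate 3 or 4 at 0 h, 0.0588 without WT replicate 1 at 4 h, and 0.117 and 0.141 without cKO replicate 3 or 4 at 4 h. It was 0.0811 on the deposited scale, 0.073 at equal total coverage and 0.0548 after median-centring. With a block for replicate number Stx3 was not called either, beside 0.172% of all genes.

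Vamp4, an R-SNARE of traffic between endosomes and the trans-Golgi (chr1:162570515-162599084, plus strand), was at 1055 and 1042 in WT against 1469 and 1440 in cKO at 0 h. The fitted difference was 0.47 on the log2 scale (standard error 0.08, adjusted p = 0.037). Without WT replicate 1 or 2 the adjusted p was 0.0921 and 0.092, without cKO replicate 3 or 4 it was 0.142 and 0.137, on the deposited scale 0.0518 and at equal total coverage 0.108. At 4 h the genotypes lay at 772 and 774 in WT and 727 and 743 in cKO, a difference of -0.07 (adjusted p = 0.544) that was 0.25 on the deposited scale and 0.04 at equal total coverage.

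Among the other SNAREs, Qa-SNAREs ran up to 0.48 at 4 h for Stx11, which passed at neither time. The Qb and Qc SNAREs ran from -0.46 for Stx6 (adjusted p = 0.0757) to 0.35 for Vti1a (0.291). Of the Qbc SNAREs, which give 2 helices to a bundle, Snap23 differed by -0.15 and Snap29, the partner of Stx17 in autophagosome fusion, by 0.52 (adjusted p = 0.0877). Snap29 was at 939 and 870 in WT against 1287 and 1298 in cKO at 4 h. Of the R-SNAREs, Vamp3, of recycling endosomes, differed by -0.41 (adjusted p = 0.0587) and Vamp8, of late endosomes and lysosomes, by 0.42 (0.0957). In the ratio of Vamp8 to Vamp3 the stimulated genotypes did not overlap, at 0.616 and 0.710 in WT and 1.15 and 1.19 in cKO, while the resting ones did, at 0.478 and 0.401 in WT and 0.420 and 0.544 in cKO.

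The next comparison is the response of the members to IFNγ and LPS. With every scaling tried, stimulated cells of both genotypes had less mRNA of Vps11, Vps18, Vps33b and Vps39 and of Plekhm1, Stx17 and Epg5, and more of the syntaxins Stx11, Stx6 and Stx3 and of Vps37a and Vps37c. Of 44 members, 24 were higher and 10 lower at 4 h in WT by the adjusted p (31.6% and 29% of all genes), and 22 higher and 12 lower in cKO (30.5% and 27.8%). These totals depend on the scaling. At equal total coverage, 6 were higher and 28 lower in WT (13.3% and 56.9% of all genes) and 6 and 33 in cKO (14.2% and 55.3%). On the deposited scale the counts were 6 and 29 in WT (12.9% and 58.2%) and 6 and 31 in cKO (14.5% and 54.5%). After quantile normalization 9 and 20 were called in WT (24.1% and 33%) and 8 and 26 in cKO (23% and 33.4%). After median-centring 29 and 7 were called in WT (37.3% and 22.9%) and 26 and 8 in cKO (35.5% and 23.1%). The shift of the median gene was -0.06 in WT with the scaling used here and -1.24, -1.19, -0.24 and 0.23 on the deposited scale, at equal total coverage, after quantile normalization and after median-centring.

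The response also moved with the level of expression. Among the 3192 genes with a mean deposited coverage from 500 to 2000, which hold 33 members, the median log2 fold change in WT was 0.52 for all genes and 0.62 for the members, and in cKO it was 0.43 and 0.52. Among the 1315 genes from 2000 upwards, with 6 members, it was 1.02 for all genes and 0.43 for the members in WT and 0.89 and 0.25 in cKO. Among the 5324 genes from 50 to 500, with 5 members, it was -0.27 and -0.80 in WT and -0.25 and -0.59 in cKO. Among the 6453 genes under 50, with no member, it was -0.82 in WT. As a share of all coverage the members fell from between 0.346 and 0.386% at 0 h to between 0.225 and 0.255% at 4 h. For these reasons only the 12 members called in the same direction in both genotypes with all 5 scalings are described as changed by stimulation, 5 of them higher and 7 lower. These are 11.4% and 15.9% of the 44, close to the 10.9% and 16.6% of all tested genes that met the same rule.

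Stx11, a syntaxin needed for granule release by cytotoxic lymphocytes, was the member with the largest response. It went from 60.6 and 64.2 to 2846 and 2305 in WT and from 75.6 and 92.0 to 3491 and 3633 in cKO. On the log2 scale Stx11 rose by 5.36 in WT (standard error 0.15, adjusted p = 2.2e-05) and 5.41 in cKO (adjusted p = 2.01e-05), and it lay between 4.16 and 5.62 over the scalings and genotypes. Stx6, a Qc-SNARE of the trans-Golgi and endosomes, went from 463 and 474 to 3381 and 2702 in WT and from 451 and 411 to 2156 and 2224 in cKO, with log2 fold changes of 2.69 and 2.35 and a range of 1.31 to 2.95 over the scalings. Stx3 rose by 2.24 in WT and 1.44 in cKO, with a range of 0.40 to 2.51. Vps37c went from 298 and 288 to 1048 and 1024 in WT, a log2 fold change of 1.82 with 2.03 in cKO, and Vps37a rose by 1.76 and 1.30. Vamp8 had log2 fold changes of 1.62 in WT and 1.86 in cKO but was not called with every scaling.

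Plekhm1 fell the most. It went from 1501 and 1784 to 126 and 136 in WT and from 1679 and 1693 to 183 and 229 in cKO. This was a log2 fold change of -3.65 in WT (standard error 0.15, adjusted p = 4.89e-05) and -3.04 in cKO (adjusted p = 8.66e-05), with a range of -4.85 to -2.84 over the scalings. The test of the difference between these gave 0.61 (adjusted p = 0.197) and did not pass. Stx17, the autophagosomal syntaxin that binds HOPS, changed by -1.13 in WT and -1.39 in cKO, and Epg5 by -0.80 and -0.59.

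In HOPS the subunits Vps39, which binds Rab7, and Vps18 both fell in both genotypes. Vps39 went from 731 and 827 to 255 and 275 in WT and from 683 and 662 to 232 and 223 in cKO, with log2 fold changes of -1.55 and -1.57 (standard error 0.10 in each). Vps18 went from 703 and 790 to 250 and 226 in WT, a log2 fold change of -1.65, with -1.25 in cKO. Vps11 changed by -0.68 and -0.67 and Vps33b by -0.92 and -1.05. Vps33a and Vps41 were called lower in both genotypes with the scaling used here and not with every other. Vps16 was at 472 and 452 in resting and 605 and 569 in stimulated WT cells, and it was the HOPS gene called higher, at 0.35 in WT and 0.37 in cKO. At equal total coverage and on the deposited scale all 7 genes of the group, Vps16 among them, were called lower in both genotypes.

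**Figure D4:**
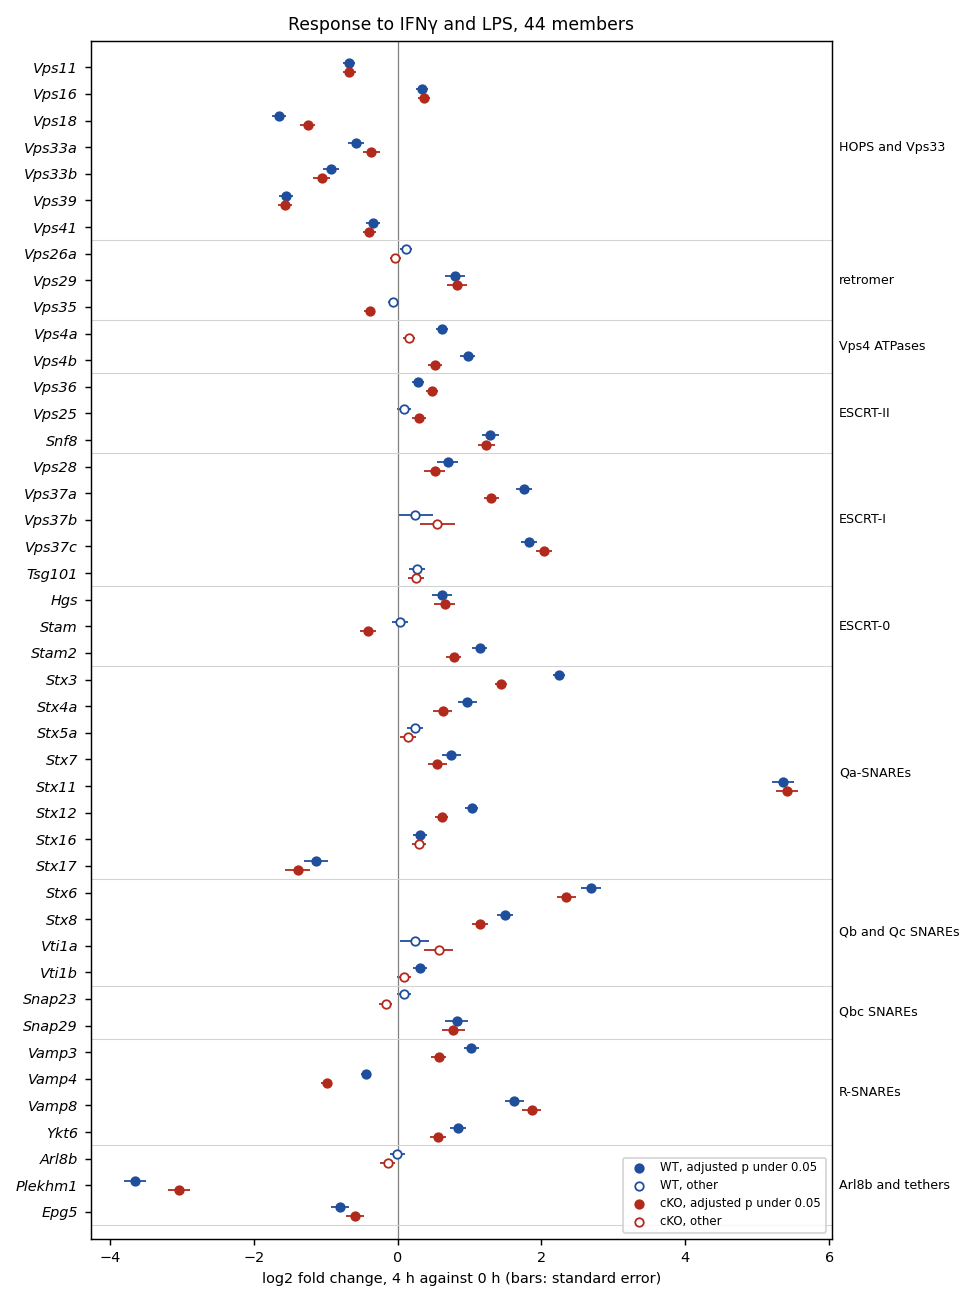
Log2 fold change of 4 h against 0 h with its standard error for the 44 members by complex, in WT (blue) and cKO (red), where filled points have an adjusted p under 0.05 with the scaling used here. Stx11 lies at 5.36 and 5.41 and Plekhm1 at -3.65 and -3.04, and values near 0 change sign with the scaling.

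Other genes of the same pathways were examined as a list of 65, of which 64 were tested. At 4 h, 5 were called higher in cKO and 4 lower, or 14.1% of the list beside 17.2% of all tested genes. At 0 h 2 were higher and 0 lower (3 lower at an unadjusted p under 0.05), or 3.12% beside 5.42%. Both shares were below the background, and the genes named here are single values and not a result about the list. Stxbp5, or tomosyn, an inhibitor of SNARE assembly, was called at both times in the same direction, with log2 fold changes of 1.14 at 4 h (adjusted p = 0.00824) and 1.10 at 0 h (0.0155). The genes called at 1 time are named after their values were seen. The 4 called lower at 4 h were Snx1 (-0.45), Snx5 (-0.42), Snx6 (-0.57) and Snx27 (-0.77), with adjusted p from 0.0262 to 0.0424. The remaining sorting nexins of the list were not called, with 0.07 for Snx3 (adjusted p = 0.799) and -0.14 for Snx2 (0.343). The others called higher at 4 h were the retromer subunit Vps26b (0.52), the ESCRT-I subunit Mvb12b (0.62), the BORC subunit Borcs8 (0.60) and the autophagosome-lysosome tether Tecpr1 (0.73), and at 0 h the Golgi SNARE Gosr1 (0.71, adjusted p = 0.0381). In the test of the difference between times limma called 0 of the 64, with 13 at an unadjusted p under 0.05, beside 3554 of all 16284 genes.

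A pair of sequence features that the choice of members did not use are given as descriptions. In GENCODE M21 the longest 3'UTR of the 44 members had a median of 1733 bases, against 1017 for 13246 tested genes. It held a median of 11 TGTA motifs, which is 5.58 per kb pooled over the members and 5.61 over all those genes. For the 10 members called between genotypes the median was 2479 bases and 16 motifs, and for the other 34 it was 1541.5 bases and 7 motifs. The called members went both ways, with 41 motifs in Vps37a, which was lower, and 21 in Stam2, which was higher. Vps18 had no TGTA in its 834 bases. A shorter 3'UTR changes the mean coverage of a gene without any change in its number of transcripts, and the part of this in the differences above was not tested.

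**Figure D5:**
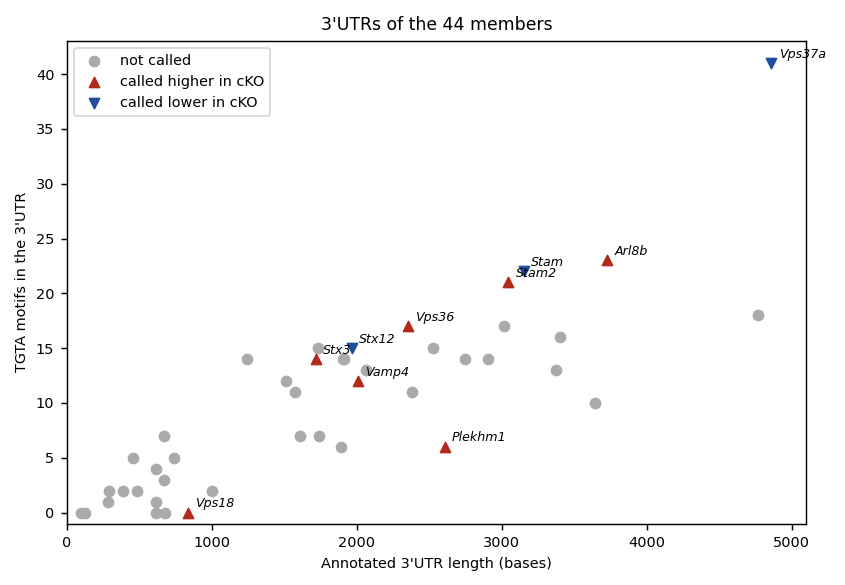
Number of TGTA motifs (sense strand) against the length in bases of the longest annotated 3'UTR, with 1 point per member, where triangles mark the 10 members called between genotypes, pointing up if higher in cKO and down if lower. Vps37a has 41 motifs in 4859 bases, and Vps18 has 0 in 834.

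The palindromic motif CACGTG, read the same on both strands, is the core of the CLEAR element through which Tfeb and related factors act on lysosomal genes. In the 300 bases from 250 before to 50 after the RefSeq start (GRCm38.p6), it was in at least 1 promoter of 5 of the 33 members that matched, or 15.2%, beside 11.1% of tested genes. Flanked by GT and AC, as in the full element, it was in the promoters of 3 members, or 9.09%, beside 0.728% of tested genes. Per promoter, CACGTG was in 15.4% of 39 for the members, 9.38% of 14977 for the tested genes and 7.15% of all 32851. For each of these 3 members 1 match is shown, as 30 bases on the gene's strand with the motif in capitals. Vps26a held another flanked match, at chr10:62486732-62486761.
Vps16, chr2:130424290-130424319, plus strand: aggcggcctcgtCACGTGaccccgaagggc
Vps26a, chr10:62486970-62486999, minus strand: cgcacggctcgtCACGTGacaactagctct
Vps33a, chr5:123573010-123573039, minus strand: tgaacgtcccgtCACGTGacgcaggcggcg
Vps16 and Vps33a are neighbours within HOPS, and their motifs began 18 and 12 bases before the start. None of the 3 was called between genotypes at either time, with log2 fold changes at 4 h of 0.27, -0.09 and 0.28. A match is a description of these letters and not a binding site.

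Some members share sequence or position with other genes, and their values are the less certain for it. Snf8, Tsg101 and Vps4b have processed pseudogene copies (at least 95% identity over 300 bases or more), and Vps25, Vps29 and Vps37b overlap the transcripts of Ramp2, Fam216a and Hip1r. With 2 samples per group an exact permutation test cannot go below p = 0.333, so p-values come from the fit across all genes. The mean coverage of a gene does not resolve its isoforms.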

How the data were processed

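Total RNA was the input to a NEBNext Ultra library kit, which does not mark strand, and libraries were sequenced as paired ends. The authors aligned the reads to GRCm38 with HISAT2 2.2.1 and quantified RefSeq genes with StringTie 2.1.7. The deposited values have the properties of mean coverage per base, with no scaling for depth, and the number of reads behind a value is unknown. The authors' columns of fold changes and p-values in the same tables were not used, and 0 other columns of samples were left out.

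Each sample was divided by the median over genes of its ratio to the mean of the 8 samples. This departs from an earlier account of the same tables, which kept the deposited scale, because the cKO samples were deeper. The filter kept a gene whose coverage averaged 0.5 or more, and log2(scaled coverage + 0.1) was fitted for all 8 samples in 4 groups with limma 3.58.1 (R 4.3.3), so fold changes are on that scale. A gene was called at a Benjamini-Hochberg adjusted p under 0.05 over all 16284 genes. WT and cKO shared no replicate number. Same-numbered samples of the 2 times deviated with correlations of 0.0209 in WT and 0.0232 in cKO, and numbers were not treated as pairs. The fit thus took the 8 samples as independent. With 2 samples per group this correlation cannot show whether same-numbered samples came from the same pool of cells. With a block for replicate number, 0.172% of all genes were called for the difference between times, against 2.7% without it. p-values measure the spread between these pooled samples.

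Members called between genotypes or in the test of the difference are given in full, and the rest by range and up to 2 examples per complex. Of the other genes of the pathway, the rule names those called at both times, and those called at 1 time were added after their values were seen. The members, the lists and the markers were chosen with earlier results of these data known. Copies were sought with blastn 2.17.0. Alternatives covered scaling, pseudocount, filter, variance model, samples in the fit and each library left out. RefSeq promoter tables gave the promoter sequences.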

Additional observations from a re-analysis of the deposited data

Results flagged for a closer look

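Stx3 was marked because its difference between genotypes was not the same at the 2 times. The test of that difference gave -0.81 on the log2 scale (limma adjusted p = 0.0468). With the scaling used here the cKO samples lay above the WT samples at 0 h and below them at 4 h. The difference at 4 h was -0.10 (limma adjusted p = 0.489) and turned positive on the deposited scale (0.23) and at equal total coverage. Over the alternatives that kept every library the value ran from -0.90 to -0.60 and the adjusted p from 0.0108 to 0.211, and with 1 library left out they ran from -0.88 to -0.74 and from 0.0415 to 0.141. The difference was negative in every fit, and whether it passed the threshold changed with the fit.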

How the results depend on the processing

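Between genotypes at 4 h, where 5 members were higher and 3 lower, the alternatives gave 11 higher on the deposited scale, 2 higher after median-centring, 3 higher after quantile normalization, 9 higher and 7 lower with an intensity trend (12.3% and 12.6% of all genes in that fit), 5 lower with no filter (7.37%), 3 higher by the fold rule, and 0 and 0 with the 4 compared samples alone (limma, 11 at an unadjusted p under 0.05). With any 1 of the compared libraries left out, fewer members were called higher, and the number called lower moved either way. In both directions a smaller share of all genes was called in those fits than in the main fit. At 0 h, where 4 were higher and 0 lower, 6 were higher with an intensity trend (5.39% of all genes) and 2 at equal total coverage (2.36%). In the fit of 4 samples 1 was higher (0.763%). With no filter, after quantile normalization and with an intensity trend 1 was lower (2.9%, 4.46% and 5.48% of all genes). With any 1 of the compared libraries left out, fewer members were called higher, and so was a smaller share of all genes. A group left with 1 library was assumed to vary like the other groups. In WT, 24 members were higher and 10 lower at 4 h than at 0 h, against 6 and 29 on the deposited scale, 6 and 28 at equal total coverage and 9 and 20 after quantile normalization. With 1 library left out fewer were called higher and no more were called lower, and the shares of all genes called fell as well. In cKO, 22 and 12 became 6 and 31, 6 and 33 and 8 and 26 with the same scalings, and 14 were higher by the fold rule (27.4% of all genes). With 1 library left out fewer were called in both directions, and the shares of all genes called fell as well. The 1 member called for the difference between times became 3 with no filter, with an intensity trend and with no moderation (4.07%, 7.12% and 2.93% of all genes). It became 2 after quantile normalization (2.33%) and by the fold rule (15.7%). The count was 0 on the deposited scale, after median-centring, at equal total coverage and with a pseudocount of 1 (3.05%, 2.12%, 2.51% and 2.26%). With 1 library left out, whether Stx3 was called changed with the library. With a block for replicate number, the count for the difference between times was 0 (0.172% of all genes). Stimulation then gave 19 higher and 8 lower in WT (29.1% and 25.7%) and 19 and 9 in cKO (27.9% and 24.3%). The numbers were not taken as pairs.

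The log2 fold changes of Stx3 (0.23 and 0.0164) and Vamp4 (0.25 and 0.0385) at 4 h turned positive on the deposited scale and at equal total coverage, and that of Plekhm1 at 0 h, which ran from -0.0814 without WT replicate 1 to 0.168 without WT replicate 2, turned in the first case, none of them called. The cause was not tested. For the named genes, 496 of the other values kept their direction and side of the threshold, 69 lost the call, 6 gained it and 5 turned. The number of reads is unknown, so counting error cannot be given.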
